A study of Mus musculus with 446 samples.

Results

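The sterol transporters and lipid transfer proteins Abcg5, Abcg8, Abca1, Abcg1, Scarb1, Npc1, Npc2, Pltp and Lcat, 9 genes whose products move sterols and phospholipids across membranes or between lipoproteins, were followed in liver, skeletal muscle and abdominal fat of Diversity Outbred mice. Members were taken by gene symbol, matched to the Ensembl identifiers in the tables; the rule uses no measured value, but the list was drawn up with earlier results of these data known. All 9 were among the 47643 genes of the liver and muscle tables, and 2 of them, Abca1 and Pltp, were among the 2728 genes of the adipose table used here; the other 7 were not analysed in adipose tissue. Diversity Outbred mice are an outbred stock in which every animal is genetically distinct. All animals were males received at 6 weeks of age, caged singly, and fed control diet with 10% of calories from fat before the study began. The high-fat group then ate a diet with 60% of calories from fat for 14 weeks, and the control group stayed on the control diet for the same time. Total RNA from each tissue of each mouse was sequenced as 1 stranded library on a MiSeq, so libraries of a tissue come from separate animals. The 446 libraries included 74 high-fat and 74 control livers used here, 74 high-fat and 74 control muscles, and 75 high-fat and 73 control adipose samples.

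ABCG5 and ABCG8 work as a pair that moves cholesterol and plant sterols from hepatocytes into bile and from intestinal cells back into the lumen. ABCA1 loads cholesterol and phospholipid onto lipid-poor apolipoprotein A-I, ABCG1 adds cholesterol to formed HDL particles, and SR-BI, the product of Scarb1, takes cholesteryl ester from HDL into liver and steroid-making cells. Inside the lysosome, the soluble protein NPC2 hands cholesterol freed from lipoproteins to the membrane protein NPC1, which exports it. In plasma, PLTP moves phospholipid between lipoproteins and LCAT esterifies cholesterol on HDL. Abcg5, Abcg8, Abca1, Abcg1 and Pltp are known targets of the liver X receptors, which sense oxysterols.

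Values are TPM, a read level per transcript length and library, divided by a scale factor per library and called scaled TPM. The factors spanned a wide range. They ran between 0.0106 and 1.94 in high-fat livers and between 0.0139 and 1.65 in control livers. Factors below 1/3 of the median for their tissue marked 12 high-fat and 14 control livers, 9 high-fat and 2 control muscles, and 7 high-fat and 11 control adipose libraries. Read depth behind TPM is unknown. Liver and muscle of mouse 80 were left out, since its liver library held muscle genes and its muscle library held liver genes. Apart from mouse 80, 9 mice had a liver and a muscle library that did not match each other best in the pattern of mouse-specific genes. In liver, 6 skeletal muscle markers summed to a median of 1.26 scaled TPM in high-fat livers and 1.40 in control livers, but reached 4624 and 2627. In muscle, 6 hepatocyte markers summed to a median of 4.70 in high-fat muscles and 5.95 in control muscles, but reached 6129 and 1771. Each diet comparison was repeated without such libraries, and the results that moved are named beside their values. Because whole tissue was sequenced, fewer cells of a type and less RNA per cell cannot be told apart in any comparison.

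In liver, Npc2 and Pltp were lower on the high-fat diet, and the other 7 genes did not pass the test. Fold changes are differences of mean log2(scaled TPM + 1), high-fat minus control, tested with limma over 12297 genes and adjusted by Benjamini-Hochberg; 9.85% of those genes passed an adjusted p of 0.05, 4.69% higher and 5.16% lower. The 2 of 9 members that passed were both lower. An unadjusted limma p under 0.05 was reached by 6 of the 9, and by 2609 of the 12297 genes. The median log2 fold change was -0.13 over the 9 members, against -0.0030 over all genes tested.

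Npc2, the soluble lysosomal cholesterol carrier, had a lowest, median and highest level of 3.92, 9.47 and 13.8 scaled TPM in high-fat livers, against 5.11, 13.1 and 17.5 in control livers. The ranges overlapped, but 4 of 74 high-fat livers lay above the control median. Its log2 fold change was -0.41 ± 0.05 (SE; adjusted p = 8.03e-13, limma), a ratio of 0.751 to control livers in scaled TPM + 1. Npc1, its membrane partner, had 14.0, 25.4 and 41.4 scaled TPM in high-fat livers, against 11.2, 25.8 and 44.2 in control livers. The groups overlapped over nearly their whole range, and the log2 difference was -0.03 ± 0.06 (SE, with an adjusted p of 0.862 by limma) and an interval between -0.14 and 0.09.

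**Figure D1:**
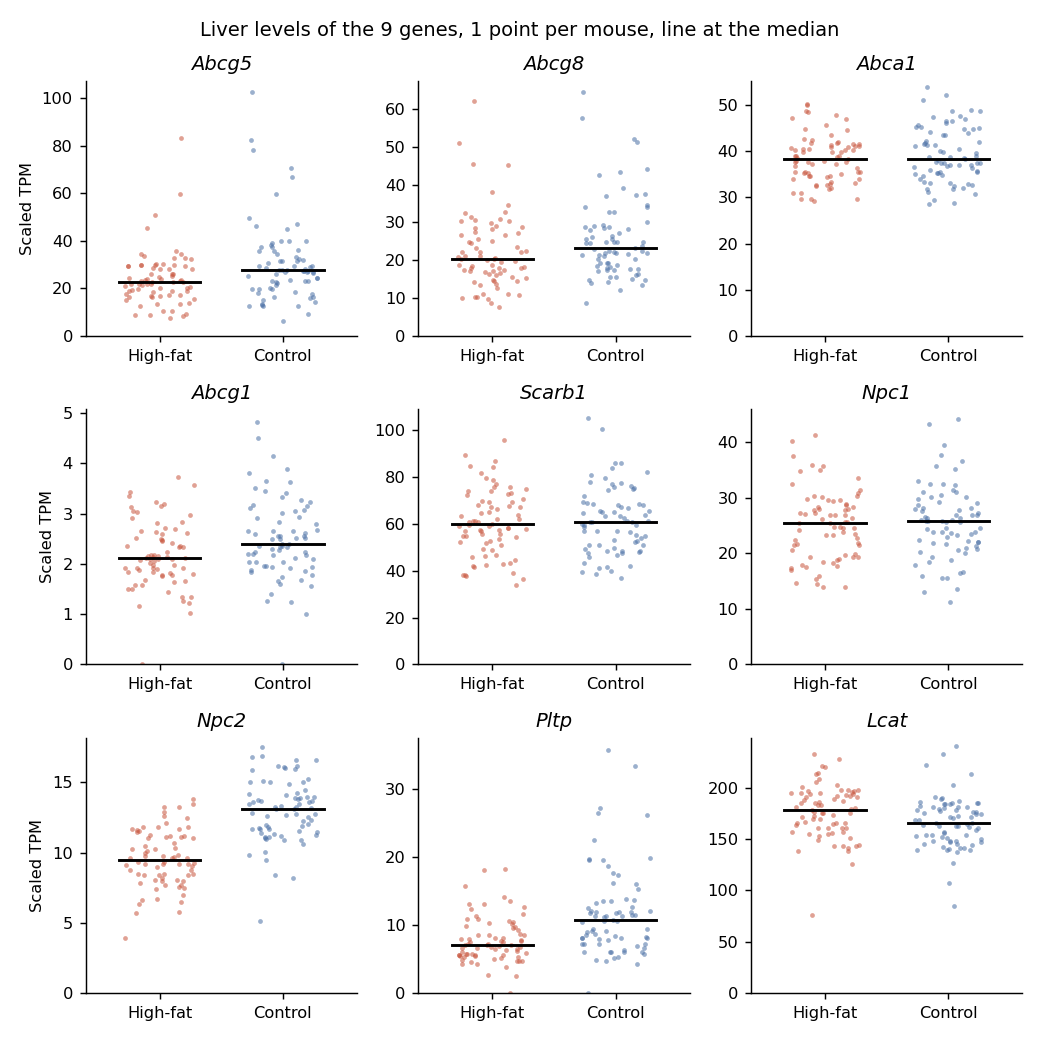
Scaled TPM of each of the 9 genes in 74 high-fat and 74 control livers, 1 point per mouse, with a line at the median of each diet. The high-fat median of Npc2 is 9.47 against 13.1 in control livers and that of Pltp is 7.03 against 10.6, while the medians of Abca1, Scarb1 and Npc1 lie side by side.

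Pltp, the plasma phospholipid transfer protein, had 0, 7.03 and 18.2 scaled TPM in high-fat livers, against 0, 10.6 and 35.7 in control livers. Of 74 high-fat livers, 13 lay above the control median, and the upper tail of the control group had no counterpart on the high-fat diet. The log2 fold change was -0.48 ± 0.11 (SE; adjusted p = 0.00105, limma), a ratio of 0.718 to control livers in scaled TPM + 1. One library of each diet was listed at 0 for Pltp and for Abcg1; they are the libraries with the lowest scale factor of their diet. Lcat, the HDL cholesterol esterifying enzyme, was the most abundant of the 9 with 75.7, 178.7 and 232.7 scaled TPM in high-fat livers, against 84.6, 165.8 and 240.5 in control livers. Its log2 fold change of 0.09 ± 0.04 (SE) had an adjusted p of 0.145 by limma. Without the libraries holding genes of another tissue it was 0.12 (adjusted p = 0.0172, limma), and without the unmatched mice 0.11 (adjusted p = 0.0137, limma). The call of Lcat thus changed with the set of libraries used, and the reason was not tested.

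The promoter windows of Npc2 and Pltp are shown because these are the 2 members that passed the test in liver. The RefSeq sequences (GRCm38.p6, minus strand of the chromosome, 250 bases before to 50 after the start site, read in the direction of the gene) lie at chr12:84773063-84773362 for Npc2 and chr2:164857659-164857958 for Pltp. Capitals mark the GC box GGGCGG or its complement CCGCCC.
Npc2: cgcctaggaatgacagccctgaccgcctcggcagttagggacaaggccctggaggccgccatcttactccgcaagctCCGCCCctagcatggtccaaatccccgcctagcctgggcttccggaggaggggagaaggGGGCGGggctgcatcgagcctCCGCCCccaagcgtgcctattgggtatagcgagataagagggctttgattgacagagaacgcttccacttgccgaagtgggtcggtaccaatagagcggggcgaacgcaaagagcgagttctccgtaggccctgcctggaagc
Pltp: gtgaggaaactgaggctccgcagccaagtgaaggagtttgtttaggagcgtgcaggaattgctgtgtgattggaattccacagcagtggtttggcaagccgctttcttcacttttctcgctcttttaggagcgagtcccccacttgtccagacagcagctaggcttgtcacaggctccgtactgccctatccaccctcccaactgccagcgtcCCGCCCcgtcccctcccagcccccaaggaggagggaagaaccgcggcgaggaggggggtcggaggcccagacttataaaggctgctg
Npc2 has 3 GC boxes and Pltp has 1, on either strand, and 35.7% of 32851 RefSeq windows of this length hold at least 1. Neither window holds the direct repeat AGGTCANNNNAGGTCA with up to 2 mismatches, searched on both strands and found in 3.02% of windows. Neither holds the sterol response element letters TCACNCCAC, found in 1.24% of windows. These are matches of letters within the windows and not measured sites.

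Abcg5 and Abcg8, the biliary sterol export pair, had lower medians on the high-fat diet but did not pass the test. Abcg5 had 7.52, 22.7 and 83.3 scaled TPM (lowest, median, highest) in high-fat livers, against 6.43, 27.5 and 102.3 in control livers. Its log2 fold change was -0.30 ± 0.10 (SE; adjusted p = 0.0527, limma), and 24 of 74 high-fat livers lay above the control median. Abcg8 had 7.59, 20.3 and 62.02 in high-fat livers, against 8.61, 23.1 and 64.52 in control livers, and its log2 difference was -0.22 ± 0.09 (SE, with an adjusted p of 0.122 by limma). The ranges of both genes overlapped almost wholly between the diets. Some liver libraries, 7 high-fat and 4 control, carry a second number in their label; without them Abcg5 was -0.37 (adjusted p = 0.0100) and Abcg8 -0.30 (adjusted p = 0.0177). Abcg5 also passed by the normal scores of ranks (adjusted p = 0.0464) and with mouse 80 kept (adjusted p = 0.0450).

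The 2 genes lie head to head, and their promoter window is shown because their levels moved together from mouse to mouse, as described below. Their RefSeq start sites are 110 bases apart on opposite strands of chromosome 17, and their windows share 209 bases. The Abcg8 window on the plus strand (GRCm38.p6, chr17:84682871-84683170) is printed with the bases shared with the Abcg5 window in capitals.
Abcg8: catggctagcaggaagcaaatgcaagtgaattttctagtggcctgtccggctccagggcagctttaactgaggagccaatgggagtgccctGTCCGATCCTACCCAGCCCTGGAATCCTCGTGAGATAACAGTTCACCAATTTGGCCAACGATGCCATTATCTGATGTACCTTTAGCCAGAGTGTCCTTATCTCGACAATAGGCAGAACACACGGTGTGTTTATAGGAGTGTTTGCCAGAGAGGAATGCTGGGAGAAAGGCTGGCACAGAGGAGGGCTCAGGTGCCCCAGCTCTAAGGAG
The shared stretch holds the letters TTTATA, the complement of TATAAA, 31 bases before the Abcg8 start; TATAAA occurs on either strand in 13.6% of windows. No GC box, no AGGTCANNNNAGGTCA repeat with up to 2 mismatches and no TCACNCCAC lies in either of the 2 windows.

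Of the HDL efflux and uptake genes of the liver, Abca1 and Scarb1 stayed close between the diets, and Abcg1 was somewhat lower without passing the test. Abca1 had 29.1, 38.4 and 50.2 scaled TPM in high-fat livers, against 28.6, 38.4 and 53.9 in control livers, and 37 of 74 high-fat livers lay above the control median. Its log2 fold change was -0.03 ± 0.03 (SE; adjusted p = 0.639, limma), with an interval between -0.10 and 0.03. Scarb1, the HDL receptor, had 34.1, 59.9 and 95.8 in high-fat livers, against 36.9, 60.99 and 105.3 in control livers (-0.02 ± 0.05, adjusted p = 0.864, limma). Abcg1, the exporter to formed HDL and the lowest of the 9 in liver, had 0, 2.11 and 3.73 in high-fat livers, against 0, 2.39 and 4.83 in control livers (-0.13 ± 0.06, adjusted p = 0.173, limma). Its interval lay between -0.24 and -0.01, and 25 of 74 high-fat livers lay above its control median. By median scaled TPM in high-fat livers the order was Lcat, Scarb1, Abca1, Npc1, Abcg5, Abcg8, Npc2, Pltp and Abcg1, and it was the same in control livers except that Abcg5 stood above Npc1. The interquartile ranges in high-fat livers for Npc1 (19.8 to 28.9), Abcg5 (17.4 to 29.2) and Abcg8 (16.1 to 27.5) overlapped, as did those of Npc2 (8.22 to 11.2) and Pltp (5.53 to 9.69).

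In muscle no member passed the test, and Pltp stood on the opposite side of 0 from liver. With limma, 1.45% of 13458 genes passed in muscle, and 0 of the 6 members tested did; 2 of them, Abca1 and Pltp, had an unadjusted p under 0.05, as did 1664 of the 13458 genes, and the normal scores of ranks also called 0 of 6. Pltp had 5.36, 17.4 and 79.4 scaled TPM in high-fat muscles, against 5.43, 14.7 and 54.3 in control muscles, and 46 of 74 high-fat muscles lay above the control median. The log2 fold change was 0.23 ± 0.10 (SE; adjusted p = 0.285, limma). Abca1 had 4.31, 9.31 and 23.6 in high-fat muscles, against 6.62, 11.1 and 29.1 in control muscles, and its log2 difference was -0.23 ± 0.07 (SE, with an adjusted p of 0.103 by limma). Both pairs of ranges overlapped widely.

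The remaining muscle genes were close between the diets. Npc2 had a median of 15.6 scaled TPM in high-fat muscles and 15.7 in control muscles (-0.05 ± 0.09, adjusted p = 0.885), Npc1 16.9 and 16.0 (-0.02 ± 0.10, adjusted p = 0.969), Scarb1 11.1 and 11.3 (-0.03 ± 0.06, adjusted p = 0.883) and Abcg1 2.30 and 2.00 (0.09 ± 0.09, adjusted p = 0.722), all by limma. Abcg5, Abcg8 and Lcat fell below the filter of 1 scaled TPM and were not tested. Abcg5 was listed at 0 in 50 of 74 high-fat and 45 of 74 control muscles, and Abcg8 in 32 and 26. Lcat had a median of 0.359 in high-fat muscles and 0.368 in control muscles, with highest values of 19.9 and 7.37.

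In adipose tissue Pltp was higher on the high-fat diet and Abca1 was slightly lower. The adipose table used here is a subset of genes in which 45% of 2223 tested genes passed, 23.1% higher and 22% lower, so a call there is common. Pltp had 85.4, 295.1 and 628.1 scaled TPM in high-fat adipose tissue, against 96.9, 153.2 and 515.4 in control tissue, and 70 of 75 high-fat samples lay above the control median. The log2 fold change was 0.76 ± 0.09 (SE; adjusted p = 1.25e-12, limma), a ratio of 1.70 to control tissue in scaled TPM + 1. Abca1 had 69.9, 135.2 and 175.3 in high-fat adipose tissue, against 92.2, 140.2 and 182.5 in control tissue, and its log2 difference was -0.11 ± 0.04 (SE, with an adjusted p of 0.0247 by limma). The Abca1 difference was -0.07 (adjusted p = 0.113) without libraries holding muscle genes. On TPM as deposited it was 0.13 ± 0.17 (SE, with an adjusted p of 0.566 by limma). The median of all tested adipose genes was 0.21 on that scale. Abca1 was below the median of all tested genes on either scale, but its distance from that median was not tested.

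Some macrophage markers moved with Pltp in adipose tissue. Of 10 macrophage markers 4 were in the table, and 2 of the 3 tested were higher: Cd68, a lysosomal glycoprotein of macrophages (1.57 ± 0.17, adjusted p = 4.35e-13, limma), and Adgre1, which encodes F4/80 (1.18 ± 0.15, adjusted p = 2.98e-11, limma). Cd163, a scavenger receptor of resident macrophages, did not pass (-0.13 ± 0.08, adjusted p = 0.189, limma). The summed level of the 4 markers had a lowest, median and highest value of 75.5, 278.8 and 1044 scaled TPM in high-fat adipose tissue, against 56.4, 112.9 and 626.3 in control tissue. Across mice on the same diet, Pltp followed Cd68 with Pearson r = 0.821 on the high-fat diet (n = 75) and 0.807 on the control diet (n = 73), with Spearman rho of 0.841 and 0.740. With Adgre1 the Pearson r was 0.773 on the high-fat diet and 0.768 on the control diet. These relations with Cd68 and Adgre1 had the smallest p that 100000 permutations can give (1e-05, 3.5e-05 after adjustment over 14 relations). With Cd163 Pltp had a Pearson r of 0.243 and 0.262 (adjusted p = 0.0439 and 0.036). Abca1 had a Pearson r with Cd68 of -0.0036 on the high-fat diet (adjusted p = 0.976) and 0.286 on the control diet (adjusted p = 0.0245), and with Cd163 of 0.381 and 0.365 (adjusted p = 0.00252 and 0.00394). Of the 14 relations 11 passed, 4 of 7 on the high-fat diet and 7 of 7 on the control diet. Without libraries of low scale factor 9 passed, 3 of 7 and 6 of 7. These relations were chosen after the values had been seen, and the part of macrophages in the diet difference of Pltp was not tested.

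**Figure D2:**
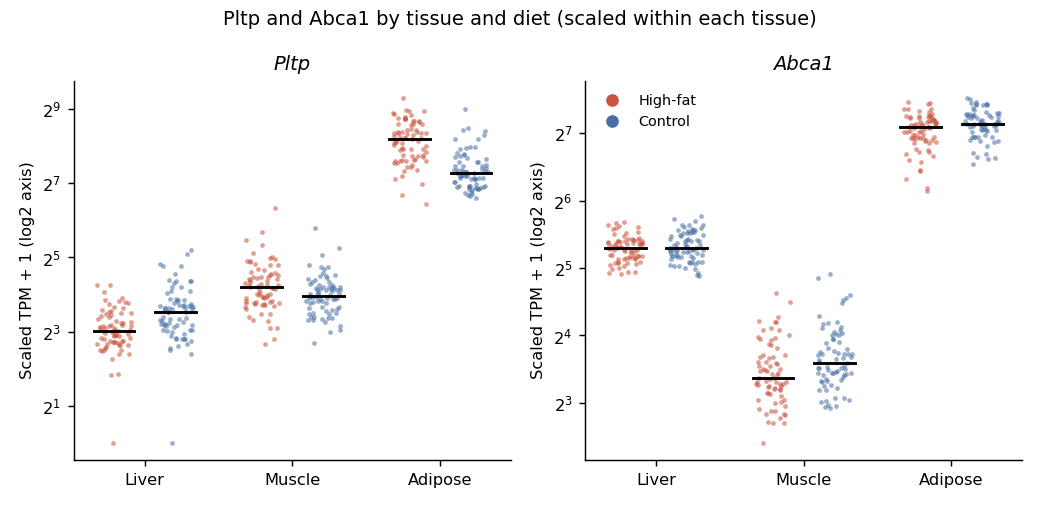
Scaled TPM + 1 on a log2 axis for Pltp and Abca1 in liver, muscle and adipose tissue, 1 point per mouse, high-fat left of control in each tissue, with a line at the median. The Pltp medians are 7.03 and 10.6 in liver, 17.4 and 14.7 in muscle and 295.1 and 153.2 in adipose tissue for high-fat and control mice; levels are scaled within each tissue, so heights are compared within a tissue.

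The diet effect on Pltp differed between the tissues in each of the 3 pairs. The liver effect minus the muscle effect was -0.71 ± 0.15 (SE; adjusted p = 0.000452), the liver effect minus the adipose effect -1.23 ± 0.14 (SE; adjusted p = 1.92e-13), and the muscle effect minus the adipose effect -0.53 ± 0.13 (SE; adjusted p = 0.00107), by limma on the interaction of diet and tissue. The effect on Npc2 also differed between liver and muscle, at -0.36 ± 0.10 (SE; adjusted p = 0.0205, limma). Of all genes tested, 3.17% passed between liver and muscle (1.8% with a negative difference, as for the 2 of 6 members that passed), 25.6% between liver and adipose tissue (13.8% negative) and 22.9% between muscle and adipose tissue (12.1% negative). For Abca1 none of the 3 differences passed: 0.19 ± 0.08 for liver minus muscle (adjusted p = 0.210), 0.07 ± 0.05 for liver minus adipose (adjusted p = 0.313) and -0.12 ± 0.09 for muscle minus adipose (adjusted p = 0.343), by limma. Libraries of the same mouse are paired across tissues. With the mouse as a block the Pltp differences were -0.71, -1.24 and -0.52 and the Npc2 difference -0.36, and the same 4 passed.

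**Figure D3:**
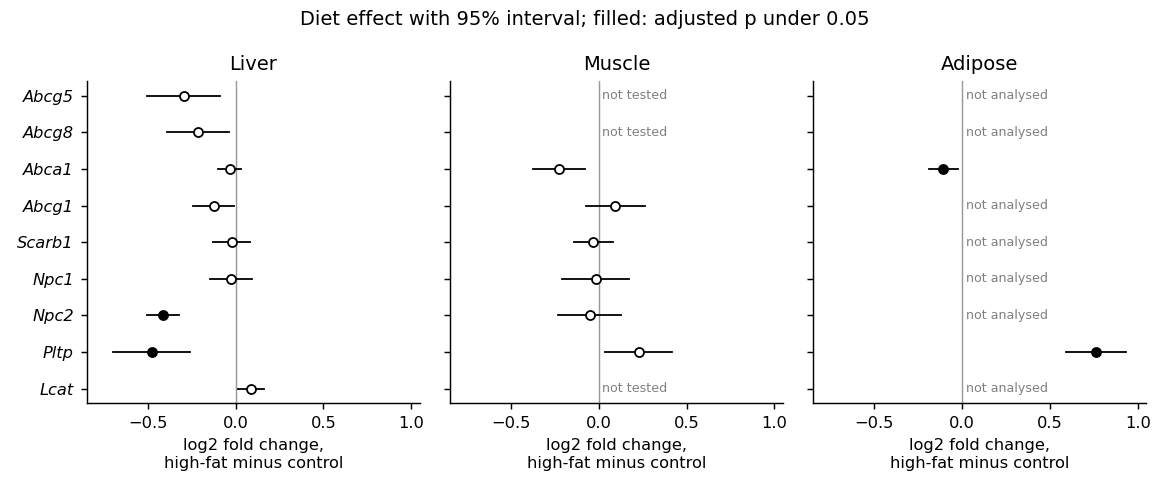
Log2 fold change, high-fat minus control, of each gene in liver, muscle and adipose tissue with its 95% interval; filled points passed an adjusted p of 0.05 by limma. Pltp is left of 0 in liver (-0.48) and right of 0 in adipose tissue (0.76), and Npc2 is left of 0 in liver (-0.41) and near 0 in muscle (-0.05).

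Among the 9 members, levels in liver and muscle of control mice were furthest apart for Lcat, Abcg5 and Abcg8. On a common scale for both tissues, 7 of 9 members were higher in liver than in muscle and none was lower by limma. Of 14857 genes, 88.7% passed and 42.4% were higher in liver, so a difference between these tissues is the rule. Genes entered this comparison by passing the filter in either tissue. Abcg5, Abcg8 and Lcat passed it in liver only, so their direction was fixed in advance by the filter. Scarb1, Abca1, Npc1 and Abcg1 passed it in both tissues. The log2 differences, liver minus muscle, were 7.19 ± 0.06 for Lcat, 5.01 ± 0.08 for Abcg5, 4.84 ± 0.06 for Abcg8, 2.9 ± 0.05 for Scarb1, 2.24 ± 0.06 for Abca1, 1.13 ± 0.08 for Npc1 and 0.48 ± 0.08 for Abcg1 (SE). In muscle Abcg5, Abcg8 and Lcat lie mostly below the pseudocount of 1, which therefore sets the size of their differences: with a pseudocount of 0.1 they were 7.93, 7.76 and 8.97. Npc2 was at 0.15 ± 0.08 (adjusted p = 0.0573; 0.17 and 0.0496 with a pseudocount of 0.1, 0.20 and 0.0232 without libraries of low scale factor) and Pltp at 0.10 ± 0.11 (adjusted p = 0.397) by limma. On TPM as deposited the median of all genes tested was -0.70, and there Npc2 was at -0.72 and Pltp at -0.71, both past the threshold, Abcg1 at -0.11 and Npc1 at 0.18. In high-fat mice on the common scale, Pltp was at -0.62 (adjusted p = 2.39e-08) and Npc2 at -0.22 (adjusted p = 0.00173), so both were lower in liver than in muscle on that diet.

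Among mice on the same diet, Abcg5, Pltp and Abcg8 varied most in liver and Lcat and Abca1 least. The within-diet SD of log2(scaled TPM + 1), over livers without low scale factors, was 0.58 for Abcg5, 0.56 for Pltp and 0.54 for Abcg8, against a median of 0.30 over all genes tested. It was 0.19 for both Abca1 and Lcat, and 8.66% and 8.03% of tested genes had a lower SD. In muscle the order was different: Npc1 and Pltp (0.59 each), Npc2 (0.56) and Abcg1 (0.54) lay above the median SD of 0.34, as did Abca1 (0.47), while Scarb1 lay near it (0.33). In adipose tissue the SD was 0.56 for Pltp and 0.26 for Abca1, with a median of 0.31. The SD did not differ detectably between the diets: 0 of 8 members tested passed in liver and 0 of 5 in muscle by limma on the distances from the group median, and 0 members had an unadjusted p under 0.05 in either; 0.0273% and 0.0352% of all genes passed.

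The sterol export pair was the tightest pair in liver. Abcg5 and Abcg8 had a Pearson r of 0.762 in high-fat livers and 0.811 in control livers (Spearman rho 0.720 and 0.738; n = 74 each; adjusted permutation p = 0.00024). Without the 2 mice farthest from the Abcg5 median the r was 0.712 and 0.800. Both genes also followed Scarb1: Abcg8 with r = 0.554 in high-fat and 0.396 in control livers (adjusted p = 0.00024 and 0.0048), and Abcg5 with r = 0.482 and 0.313 (adjusted p = 0.000288 and 0.0413). Without libraries of low scale factor Abcg5 and Scarb1 had an r of 0.254 in control livers (adjusted p = 0.18) and did not pass. The share of all liver gene pairs that would pass was not computed. Of the 72 relations tested in liver, 36 per diet, 6 passed in high-fat and 7 in control livers, with adjustment over all 72. The median r was 0.121 on the high-fat diet and 0.0043 on the control diet.

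Npc2 and Pltp, the 2 genes lower in high-fat livers, had an r of 0.211 in high-fat livers (rho 0.289, adjusted p = 0.177) and 0.541 in control livers (rho 0.378, adjusted p = 0.000288; 0.374 without the 2 farthest mice). Abcg8 and Pltp had the lowest r in control livers (-0.311, adjusted p = 0.0413, but -0.260 and 0.104 with a pseudocount of 0.1) and Abcg5 and Npc2 the lowest in high-fat livers (-0.289). Abcg1 and Pltp had an r of 0.471 in high-fat and 0.397 in control livers (adjusted p = 0.00555 and 0.0214), but 0.188 and 0.120 without the 2 farthest mice, so that relation rests on those mice. The same holds for Pltp with Lcat in high-fat livers (0.394, then 0.135), Abcg1 with Lcat in high-fat livers (0.359, then -0.037) and Abcg1 with Npc2 in control livers (0.353, then 0.062). Pltp with Lcat was at 0.256 in control livers (adjusted p = 0.112). Neither Abca1 nor Npc1 had a relation that passed in liver. The r of Abca1 was 0.234 with Abcg1 in high-fat and 0.166 in control livers, -0.034 and 0.087 with Scarb1, and 0.164 and 0.064 with Pltp. Npc1 and Npc2 had -0.056 in high-fat and -0.138 in control livers.

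**Figure D4:**
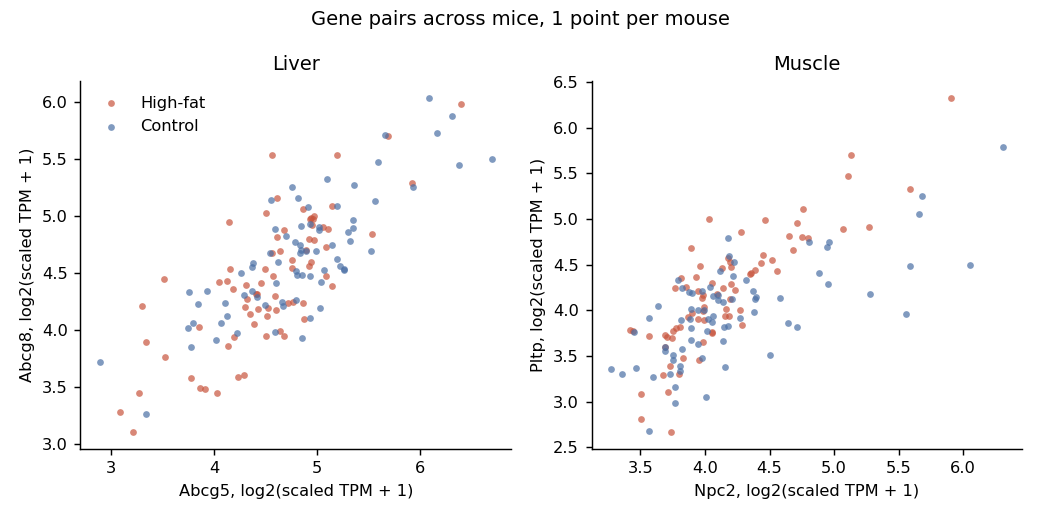
Abcg8 against Abcg5 in liver and Pltp against Npc2 in muscle, in log2(scaled TPM + 1), 1 point per mouse, high-fat and control in different colours. The liver pair has r = 0.762 in high-fat and 0.811 in control mice, and the muscle pair has r = 0.840 and 0.70.

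In muscle, Abca1, Abcg1, Scarb1, Npc2 and Pltp varied together, and Npc1 had no positive relation with them that passed. The share of all muscle gene pairs that would pass was not computed, so the counts below do not set the members apart from other genes. Of 30 relations, 10 of 15 passed on each diet. In high-fat muscles these were the 10 among the other 5 genes. In control muscles they were 9 of those and the negative relation of Npc1 with Pltp, while Scarb1 with Pltp did not pass (r = 0.239, adjusted p = 0.0582). Npc2 and Pltp had the highest r in high-fat muscles (0.840, with 0.70 in control muscles), and Abca1 and Abcg1 the highest in control muscles (0.742, with 0.751 in high-fat muscles), each with an adjusted permutation p of 2.31e-05. Abca1 and Pltp had 0.691 and 0.651, Abcg1 and Pltp 0.639 and 0.507, and Abca1 and Scarb1 0.478 and 0.381 in high-fat and control muscles, and all of these passed. Npc1 and Npc2 had -0.069 in high-fat muscles (adjusted p = 0.617) and -0.222 in control muscles (adjusted p = 0.0753). The lowest were Abcg1 with Npc1 in high-fat muscles (-0.226) and Npc1 with Pltp in control muscles (-0.265, adjusted p = 0.0341).

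The same muscle genes followed markers of fat cells, and some relations with macrophage and endothelial markers also passed. The summed level of 6 adipocyte markers, in which Adipoq and Fabp4 stand, had a lowest, median and highest value of 165.6, 764.5 and 4007 scaled TPM in high-fat muscles, against 152.2, 630.2 and 6021 in control muscles. That of 10 macrophage markers was 41.03, 115.1 and 622.4 in high-fat muscles, against 18.96, 108.5 and 400.9 in control muscles, and no gene of either list passed the diet test. With the adipocyte sum, Npc2 had an r of 0.857 in high-fat and 0.906 in control muscles, Pltp 0.816 and 0.699, Abca1 0.725 and 0.716, Abcg1 0.585 and 0.682, and Scarb1 0.550 and 0.478. Npc1 had -0.022 and -0.228, which did not pass. With the macrophage sum, Pltp had 0.870 in high-fat and 0.790 in control muscles and Npc2 0.773 and 0.545. The members were also set against a summed level of 6 endothelial markers. Over the adipocyte, macrophage and endothelial sums, 12 of 18 relations passed in high-fat and 14 of 18 in control muscles, all positive, and the counts were the same without libraries of low scale factor. Passing relations were thus not confined to fat cell and macrophage markers. In liver, Abcg1 had an r with the macrophage sum of 0.492 in high-fat and 0.490 in control livers, Npc2 0.466 and 0.431, and Pltp 0.325 and 0.212, the last of which did not pass. Over the macrophage and endothelial sums in liver, 5 of 18 relations passed in high-fat livers, 1 of them negative, and 2 of 18 in control livers. Without libraries of low scale factor 3 of 18 passed in high-fat and 2 of 18 in control livers, all positive. The macrophage sum in liver had a lowest, median and highest value of 49.1, 116.7 and 282.8 scaled TPM in high-fat livers, against 63.3, 139.6 and 398.7 in control livers. Of 9 tested macrophage markers 2, Ctss and Mpeg1, were lower and 0 higher, where 5.16% of all liver genes tested were lower and 4.69% higher. These marker relations, 36 per tissue, were chosen after the values had been seen; the part of these cells in the levels and diet differences of Npc2 and Pltp was not tested.

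**Figure D5:**
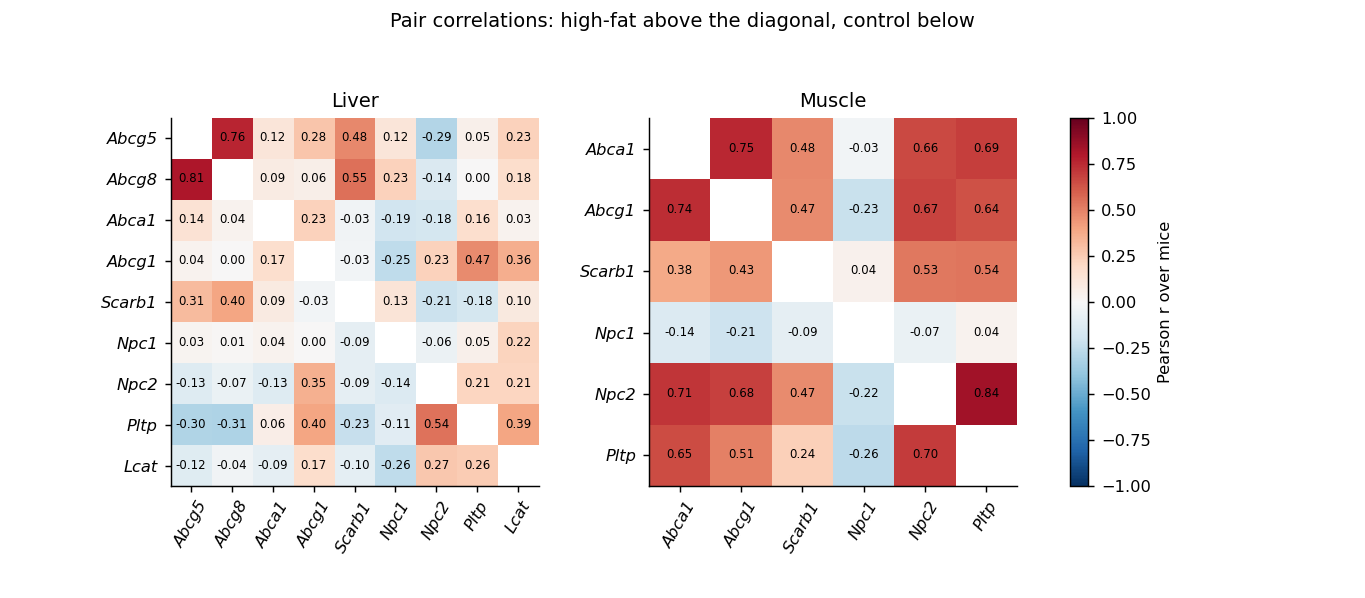
Pearson r between genes over mice of the same diet, in liver (74 high-fat and 74 control mice) and in muscle (74 and 74), with high-fat mice above the diagonal and control mice below. Liver shows 1 dark pair, Abcg5 with Abcg8, while in muscle the genes other than Npc1 have positive r with each other on both diets, between 0.239 and 0.840.

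Levels in the liver and the muscle of the same mouse were related for Npc1, while none of the other 5 genes tested in both passed. The Npc1 r was 0.489 in high-fat mice (rho 0.461, adjusted p = 0.00024) and 0.314 in control mice (rho 0.299, adjusted p = 0.0383), over 74 mice each and 12 relations. Over the 10855 genes tested in both tissues the median r was 0.0551 in high-fat and 0.0479 in control mice, and 2.55% and 6.95% of them had a higher r than Npc1. In control mice it was 0.305 without the unmatched mice (adjusted p = 0.0587) and 0.339 without mice of low scale factor (adjusted p = 0.0512). The r of Pltp was 0.052 in high-fat and 0.012 in control mice, and that of Npc2 0.090 and 0.028.

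The genes most alike to each member over mice, by within-diet Pearson r among tested genes and without a test, named different company in each tissue. In liver, Npc2 was most like Arpc1b (r = 0.579), an actin nucleation subunit, and the cholesterol synthesis enzymes Pmvk (0.516) and Tm7sf2 (0.484). Arpc1b, Pmvk and Tm7sf2 were themselves lower on the high-fat diet (-0.29, -0.93 and -0.45). Pltp in liver was most like Arpc1b (0.440), Acacb (0.434) and Gpi1 (0.432). Acacb, an acetyl-CoA carboxylase, was lower by far more than Pltp (-2.0), and Gpi1 was also lower (-0.32). Abcg1 in liver was most like the myeloid genes Tyrobp (0.604), C1qa (0.588) and Lgmn (0.586). Lcat was most like F2, the prothrombin gene (0.718), Etfb and Agt, and Npc1 like Rab43, Ppara and Fnip2. Abcg8 was most like Selenoo, Slc38a4 and Kif1c (each 0.539), and Abcg5 like Slc38a4 (0.431), Agxt and Lrpprc. In muscle, Npc2 was most like Fabp4, the adipocyte fatty acid binding protein (0.900), Pltp like Vsir (0.830), Abca1 like Ccdc80 (0.765), Abcg1 like Cap1 (0.808), Scarb1 like Lrg1 (0.572) and Npc1 like Mib1 (0.519). In adipose tissue, Pltp was most like Myo9b (0.840), Cd68 (0.830) and Ctsz (0.829), and Abca1 like Dram1 (0.604), Nr1h3, the gene of LXR alpha (0.581), and Cd36 (0.562).

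Around the 9 genes, 7 of 25 tested genes of cholesterol synthesis and uptake were lower in high-fat livers and 0 higher, where 5.16% of all genes tested were lower and 4.69% higher, with a median log2 fold change of -0.18. Among those lower were Pmvk, phosphomevalonate kinase (-0.93 ± 0.12), Fdps (-0.67 ± 0.16), Sc5d, a late desaturase of the pathway (-0.61 ± 0.08), Insig1 (-0.34 ± 0.11), Scap, the sterol sensor that escorts SREBP (-0.27 ± 0.06), and Ebp (-0.18 ± 0.05). In muscle 0 of 24 passed, against 1.45% of all genes, and in adipose tissue 0 of 3, against 45%. Bile acid and biliary export genes moved both ways in liver, 4 higher and 4 lower of 12. Cyp7a1, which starts the classic bile acid pathway (0.75 ± 0.18), and Abcb4, the canalicular phospholipid exporter (0.50 ± 0.06), were among those higher, and Abcb11, the bile salt pump (-0.31 ± 0.05), and Slc10a1, the sinusoidal bile salt importer (-0.28 ± 0.05), among those lower. In muscle 1 of 3 tested genes of that list, Atp8b1, a phospholipid flippase, was higher (0.16 ± 0.04), but in liver it was among the 4 lower (-0.25 ± 0.07). The list was not analysed in adipose tissue.

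For the lists that follow, 9.85% of all genes tested passed in liver, 4.69% higher and 5.16% lower, and 1.45% passed in muscle. Of 8 liver X receptor genes and targets outside the 9, Srebf1, the lipogenic regulator, was lower in high-fat livers (-0.37 ± 0.10) and Rxra, the receptor's partner, higher (0.19 ± 0.04), and the median was -0.04. In adipose tissue, where 45% of all genes passed, Srebf1 (-0.47 ± 0.08) and Rxra (-0.21 ± 0.07, but 0.026 on TPM as deposited) were lower and Smpdl3a (0.19 ± 0.07) higher of 5 tested, and none of the 3 passed on TPM as deposited, and in muscle Mylip (-0.18 ± 0.05) was lower of 8. Of 12 HDL proteins and enzymes in liver, Apom (-0.30 ± 0.07), Apoa1, the main HDL protein (-0.17 ± 0.05), and Apoa2 (-0.16 ± 0.05) were lower and Lipg, endothelial lipase, higher (0.32 ± 0.11). Such shifts were not particular to HDL genes. Of 6 hepatocyte markers in liver, a list that includes Apoa2, 4 were lower and 0 higher, with a median of -0.18. Alb was at -0.20 ± 0.05 and Ttr at -0.19 ± 0.05. In adipose tissue Apoe, the 1 gene of that list tested, was lower (-0.47 ± 0.08), and in muscle 0 of 6 passed. Of 19 genes of intracellular sterol transport and esterification in liver, Lipa, the lysosomal acid lipase that frees the cholesterol NPC2 carries, was lower (-0.31 ± 0.05), and Nceh1, a cholesteryl ester hydrolase (0.41 ± 0.08), and Scarb2, a lysosomal membrane protein (0.16 ± 0.03), were higher. Nceh1 was also the 1 gene of 18 to pass in muscle (0.50 ± 0.08). In adipose tissue 4 of 5 were higher, among them the sterol carriers Osbpl8 (0.34 ± 0.07) and Stard3 (0.31 ± 0.05), and Cav1, the caveolar coat protein, was lower (-0.20 ± 0.07, but 0.043 on TPM as deposited). Without the libraries holding genes of another tissue, Mylip (-0.17) and Atp8b1 (0.13) in muscle and Cav1 (-0.14) in adipose tissue did not pass. Mylip also did not pass without a filter or without libraries of low scale factor, nor Atp8b1 without a filter, without unmatched mice or with mouse 80 kept. Lipg in liver passed in 4 of 9 alternatives, and did not pass with a pseudocount of 0.1 (0.35, adjusted p = 0.206), without a filter, with mouse 80 kept, without the second-number libraries or on TPM as deposited. Apoa1 and Apoa2 did not pass with mouse 80 kept, nor Smpdl3a without the unmatched mice (0.16). Of the list genes recomputed on TPM as deposited, Pmvk in liver and Stard3 and Osbpl8 in adipose tissue kept their call and the others lost it. Every call in these lists is by limma with adjustment over all genes tested in the tissue, and errors are SE.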

How the data were processed

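Mice were assigned to diet and tissue by the library titles. Per the labels' protocols, total RNA passing a quality cutoff was made into stranded libraries and sequenced on a MiSeq, and per the submitters' processing notes the tools were Bowtie 1.2.2, Trim Galore 0.4.4 and FastQC. No source used here gives the quantifier or the genome build. As deposited by the authors, the files hold TPM, whose sums were 1000000 per library in liver and muscle; TPM keep no depth, so no counting interval can be given. The adipose table held 2728 complete genes and 1 incomplete line. Identifiers were matched to symbols with GENCODE M21 (99.1% in liver and muscle, 99.9% in adipose tissue).

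Each library was divided by the trimmed mean of its log ratios to the tissue's gene-wise medians, taken over protein-coding nuclear genes without Lars2 (trim 0.3 of ratios and 0.05 of levels at each end). Genes at 1 scaled TPM or more in 0.7 of the smaller diet group were tested on log2(scaled TPM + 1) with limma 3.58.1 (trend and robust variance, R 4.3.3), Benjamini-Hochberg over all genes and a threshold of 0.05; the test was tried on simulated data. The pseudocount understates changes of low genes. Differences between tissues are interaction terms over libraries. Correlations are within diet, with 100000 permutations and adjustment over each family. Alternatives were TPM as deposited, a pseudocount of 0.1, no filter, normal scores of ranks, joint scaling, the mouse as a block, and leaving out libraries of low scale, of unmatched mice, with second numbers or with over 100 scaled TPM of another tissue's markers. Named genes were the 9 members, the 3 genes outside the 9 most alike to each, and up to 4 genes of lowest p in each list, apart from further list genes that passed in liver. The members and lists were chosen with earlier results of these data known.

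Same mouse numbers across tissues mark 1 animal, per the labels' protocols. Of 149 mice, 140 livers correlated best with the muscle of their own mouse over 150 genes chosen on the other mice.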

Additional observations from a re-analysis of the deposited data

Results flagged for a closer look

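The 4 results below were picked out because the diet effect differed between 2 tissues by a test of the difference itself, the interaction of diet and tissue in limma. For Pltp the liver effect minus the muscle effect was -0.71, the liver effect minus the adipose effect was -1.23, and the muscle effect minus the adipose effect was -0.53. For Npc2 the liver effect minus the muscle effect was -0.36. In each case the tissues' own effects stand in the report, and no cause was tested.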

How the results depend on the processing

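Read depth is unknown in these tables, and many libraries have low scale factors, so scaling is the choice that moves most. On TPM as deposited, 0.479% of genes passed in liver (0 members), 0.111% in muscle and 14.4% in adipose tissue (1 member), and 0.0142% and 0% in the spread of liver and muscle. On that scale adipose Abca1 was 0.13, Rxra 0.026 and Cav1 0.043, and liver minus muscle was -0.71 for Pltp, -0.72 for Npc2 and -0.11 for Abcg1. All 72 liver relations passed there, and r became 0.871 for Abcg5 with Npc2, 0.966 for Abca1 with Scarb1 and 0.936 for Npc1 with Npc2 in high-fat livers, 0.723 for Abcg8 with Pltp and 0.927 for Npc1 with Npc2 in control livers. In muscle r became 0.505 for Abcg1 with Npc1 and 0.70 for Npc1 with Npc2 on the high-fat diet, and 0.406 for Npc1 with Npc2 and 0.385 for Npc1 with Pltp on the control diet. Without low-scale libraries 15.5% of liver genes passed, 0.0411% passed in the liver spread, 13.7% differed between muscle and adipose tissue, and 1 same-mouse relation passed, as without unmatched mice. Without second-number libraries 4 liver members passed. Without a filter 2.69% of liver genes and 0.306% of muscle genes passed, over more genes. In muscle 0.957% passed with mouse 80 kept and 0.677% without libraries holding other-tissue genes, an alternative added after seeing the data, under which 1 adipose member passed. With a pseudocount of 0.1, 0.0137% passed in the liver spread and 0.0235% in that of muscle. In high-fat mice liver minus muscle was -0.62 for Pltp and -0.22 for Npc2. Other than for the filter, the cause of these changes was not tested. Liver Npc2 and Pltp lost their call on TPM as deposited (-0.44 and -0.53) and in no other of the 9 alternatives. Adipose Pltp kept its call in all 7. With the replicate block 3.85% of genes differed between liver and muscle, against 3.17% without it, and the block changed no member's call.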
